A study of Homo sapiens with 4 samples.

Results

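The 34 genes described here code for the enzymes of cholesterol synthesis, for proteins that move cholesterol through and out of the cell, for the machinery of the sterol-regulated transcription factors SREBP1 and SREBP2, and for the fatty acid enzymes that these factors control. They were taken from a fixed list of symbols and matched to GENCODE 29 (GRCh38) by gene identifier. The list was chosen with earlier results of these data known, so shares and medians over it are descriptions and not tests. All 34 were found among the 58174 genes of the deposited tables, and all 34 were among the 18984 genes tested. In the 2 libraries labelled NIPBLmut, 8 of the 34 (23.5%) were called lower and none higher against the 2 libraries labelled NIPBLwt. The threshold was an edgeR adjusted p under 0.05, at which 2.1% of all tested genes were called lower and 3.71% higher. The 8 were IDI1, FDFT1, SQLE, CYP51A1 and MSMO1 of the sterol pathway and SCD, FASN and ELOVL6 of fatty acid synthesis. Their levels in the mutant were between 41.2% and 59.8% of those in wild type.

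Cholesterol is built from acetyl-CoA. Acetyl-CoA units are joined and reduced to mevalonate, mevalonate is turned into isoprenoid units, these are joined to squalene, and squalene is closed to lanosterol and trimmed to cholesterol. When sterols in the endoplasmic reticulum run low, SCAP carries the SREBP precursors to the Golgi, where the proteases MBTPS1 and MBTPS2 release the active factors. When sterols are plentiful, INSIG proteins hold SCAP back. SREBP2 mainly drives the sterol genes and SREBP1 mainly the fatty acid genes, while oxysterols act through the LXR receptors to raise the efflux pumps ABCA1 and ABCG1.

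The cells were 293FT, a human embryonic kidney line carrying the SV40 large T antigen, grown in medium with fetal bovine serum. The groups differ in the genotype of NIPBL, the gene for the cohesin loader, wild type in one and mutant in the other. The labels name neither the kind of mutation nor how many clones were used. Each group held 2 libraries of total RNA depleted of ribosomal RNA, made with a strand-specific kit, and nothing says that they came from separate cultures, so a p-value here covers only the spread from library to library, which could be purely technical.

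The libraries held between 31545743 and 33161120 expected counts. The mutant libraries lay much closer together than the wild-type libraries, with a chi-square per gene of 3.97 against 45.5. NIPBL itself was at 41.8 and 44.4 CPM in wild type and at 61.0 and 62.0 CPM in the mutant (log2 fold change 0.51, SE 0.11, edgeR adjusted p = 0.057), which does not check the labels without the kind of mutation. CPM are library-size-scaled counts (TMM), and all levels below are on that scale unless TPM is named. Of 11 genes typical of the kidney line, 9 were at 1 CPM or more in every library. PAX2 was under 1 CPM in all 4. Their summed level was 1070 to 1240 CPM in wild type and at 750.0 to 794 CPM in the mutant, with 3 called lower and 1 higher. Markers of other cell types were low beside these. Hepatocyte markers summed to between 0.1 and 0.546 CPM over all libraries, adipocyte markers to between 0.736 and 1.27 CPM, and endothelial markers to between 1.0 and 2.66 CPM. Leukocyte markers summed to 1.37 and 1.9 CPM in wild type and at 3.73 CPM in both mutant libraries. Fibroblast markers summed to 7.4 and 12.1 CPM in wild type and to 17.1 and 18.0 CPM in the mutant, with COL1A2 at 0 in all. The part of these shifts in the results below was not tested. In bulk RNA, fewer cells of a kind and less RNA per cell cannot be told apart.

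Across all tested genes, edgeR called 2.1% lower and 3.71% higher in the mutant (adjusted p under 0.05, 399 and 704 genes). Restricted to genes averaging 10 CPM or more, the share called lower was 3.26%. Of the 34 members 8, or 23.5%, were called lower, and none was called higher. At an unadjusted p under 0.05, 15 members (44.1%) were lower and 3 (8.82%) higher. Those shares were 13.8% and 15.9% over all tested genes, and 20.5% and 11.7% over genes averaging 10 CPM or more. Both mutant libraries lay below both wild-type libraries at 21 members (61.8%), against 30.8% of all tested genes and 40.5% of genes averaging 10 CPM or more. They lay above both at 5 members (14.7%), against 32.3% and 26.3%. The groups overlapped at the other 8. The median log2 fold change was -0.34 over the members, -0.01 over all tested genes and -0.09 over those of at least 10 CPM. DESeq2 called 11 of the members lower, against 5.84% of the genes to which it gave an adjusted p. It called 1 higher, against 6.44%.

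**Figure D1:**
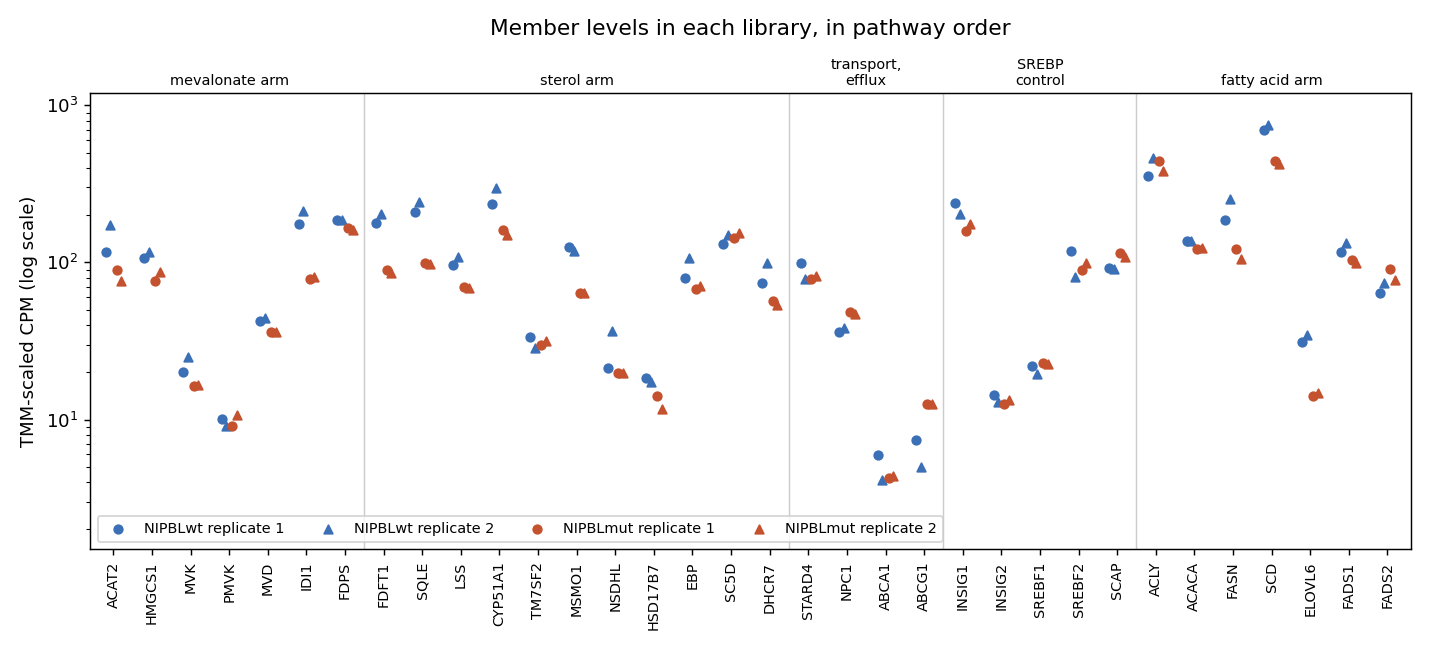
TMM-scaled CPM of each member (log axis) in the 4 libraries, in pathway order, with wild type in blue, mutant in red, replicate 1 as circles and replicate 2 as triangles. The red points lie below both blue points at IDI1, FDFT1, SQLE, CYP51A1, MSMO1, FASN, SCD and ELOVL6, and at ABCG1 they lie above, at 12.6 and 12.5 CPM against 7.38 and 5.02 CPM.

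The mevalonate arm leads from acetyl-CoA to farnesyl diphosphate. Of its 7 members 1 was called lower and none higher, against 2.1% and 3.71% of all tested genes. The mutant libraries lay below both wild-type libraries at 6, against 30.8% of all tested genes and 40.5% of genes averaging 10 CPM or more. The median log2 fold change of the 7 was -0.44. The gene called was IDI1 (ENSG00000067064, chromosome 10, 1039152 to 1049170, minus strand), the isomerase that interconverts the isoprenoid building blocks. IDI1 was at 175 and 212 CPM in wild type and at 78.9 and 80.3 CPM in the mutant. The mutant libraries lay close together and far below both wild-type libraries. The log2 fold change of -1.28 (SE 0.14, edgeR adjusted p = 0.0243) was the lowest of all 34 members.

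The enzymes on either side of IDI1 were not called. ACAT2, the cytosolic thiolase that joins acetyl-CoA units, was at 117 and 173 CPM in wild type and at 89.7 and 76.2 CPM in the mutant (log2 fold change -0.80, SE 0.21, edgeR adjusted p = 0.0829). Its wild-type libraries were far apart, and it was not called, though DESeq2 called it (adjusted p = 0.00476). HMGCS1, the synthase that makes the precursor of mevalonate, was at 106 and 116 CPM against 76.7 and 87.2 CPM (-0.44, edgeR adjusted p = 0.0963). HMGCS1 lies on chromosome 5 among genes with a median of 0.21, taken over 25 tested protein-coding neighbours to either side.

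Mevalonate kinase, MVK, was at 20.1 and 25.1 CPM in wild type and at 16.4 and 16.7 CPM in the mutant (-0.45, edgeR adjusted p = 0.132). The decarboxylase MVD was at 42.2 and 44.1 CPM against 35.9 CPM in both mutant libraries (-0.26, adjusted p = 0.178). FDPS, farnesyl diphosphate synthase, was at 187 and 185 CPM against 165 and 161 CPM (-0.19, adjusted p = 0.291). For these 3 genes the groups did not overlap but the differences were small and none was called. FDPS was the member with the highest level per length in wild type, at 182 TPM. On TPM its mutant libraries lay above wild type. Its log2 fold change with limma on log2(TPM + 1) was 0.05, where the median of all tested genes was 0.12. With effective lengths in the edgeR fit FDPS had -0.14 (adjusted p = 0.485). It has 8 annotated pseudogenes of its own name, at 0.453 CPM in sum, with which it may share reads. PMVK, phosphomevalonate kinase, was at 10.1 and 9.14 CPM in wild type and at 9.14 and 10.7 CPM in the mutant, with overlapping groups.

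The sterol arm, from squalene synthase to the last reductase, held 11 members. Of these, 4 were called lower and none higher, against 2.1% and 3.71% of all tested genes. Both mutant libraries lay below both wild-type libraries at 9, against 30.8% of all tested genes and 40.5% of genes averaging 10 CPM or more. The median log2 fold change of the 11 was -0.56. The first 2 enzymes committed to sterols fell the most. SQLE, squalene epoxidase (ENSG00000104549, chromosome 8, 124998497 to 125022283, plus strand), was at 208 and 244 CPM in wild type and at 98.7 and 97.4 CPM in the mutant (-1.21, SE 0.13, edgeR adjusted p = 0.0242). FDFT1, squalene synthase (ENSG00000079459, chromosome 8, 11795573 to 11839309, plus strand), was at 177 and 204 CPM against 90.1 and 85.5 CPM (-1.12, SE 0.13, adjusted p = 0.0261). At both genes the mutant libraries were about alike and well apart from wild type. Genes around FDFT1 were also lower, with a median of -0.47. With the neighbours' median removed in the fit, FDFT1 had -0.65 and was not called (adjusted p = 0.0635), nor was it called without mutant replicate 2 (0.0757).

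Further along, CYP51A1, the lanosterol demethylase (ENSG00000001630, chromosome 7, 92112151 to 92134803, minus strand), was at 236 and 296 CPM in wild type and at 160.0 and 149 CPM in the mutant. Its log2 fold change of -0.79 (SE 0.15) was just called by edgeR (adjusted p = 0.0478). The call was lost with RLE scaling (adjusted p = 0.0504), the stricter filter of 1 CPM in every library (0.0549) and both limma fits on TPM (0.0718 and 0.073). With the neighbourhood removed (median -0.27 there) it had -0.51 and was not called (adjusted p = 0.125). CYP51A1 shares its strand with 2 annotated genes and has 3 named pseudogenes, at 4.29 CPM in sum. MSMO1, the methylsterol monooxygenase that acts next on the sterol's methyl groups (ENSG00000052802, chromosome 4, 165327623 to 165343160, plus strand), was at 125 and 118 CPM against 63.9 and 63.5 CPM (-0.93, SE 0.11, adjusted p = 0.0273). Its neighbours had a median of 0.07, and no other annotated gene overlaps it.

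The other sterol enzymes were mostly lower in the mutant without a call. LSS, lanosterol synthase, was at 95.9 and 108 CPM in wild type and at 69.7 and 68.3 CPM in the mutant (-0.56, SE 0.12, edgeR adjusted p = 0.0552). DHCR7, the reductase of the final step, was at 73.8 and 99.4 CPM against 57.1 and 53.4 CPM (-0.65, SE 0.17, adjusted p = 0.0809). DESeq2 called both, at adjusted p = 0.0164 and 0.017. NSDHL, a decarboxylating sterol dehydrogenase, was at 21.2 and 36.4 CPM against 19.8 CPM in both mutant libraries, so that the size of the difference rested on wild-type replicate 2. EBP, the sterol isomerase, was at 79.5 and 106 CPM against 68.1 and 71.3 CPM (-0.41). HSD17B7, a keto-reductase with 2 named pseudogenes, was at 18.4 and 17.3 CPM against 14.1 and 11.7 CPM (-0.47).

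Within the sterol arm 2 enzymes had overlapping groups. SC5D, a sterol desaturase, was at 131 and 150.0 CPM in wild type and at 144 and 154 CPM in the mutant. TM7SF2, a sterol reductase that overlaps VPS51 on its strand, was at 33.5 and 28.5 CPM against 29.6 and 31.4 CPM. Taking both arms together, 15 of 18 enzymes (83.3%) had groups that did not overlap with the mutant lower. That share was 30.8% of all tested genes and 40.5% of genes averaging 10 CPM or more. Of the 18 enzymes 5 (27.8%) were called lower and none higher. The shares called lower were 2.1% of all tested genes and 3.26% of genes averaging 10 CPM or more. The median log2 fold change of the 18 enzymes was -0.50.

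**Figure D2:**
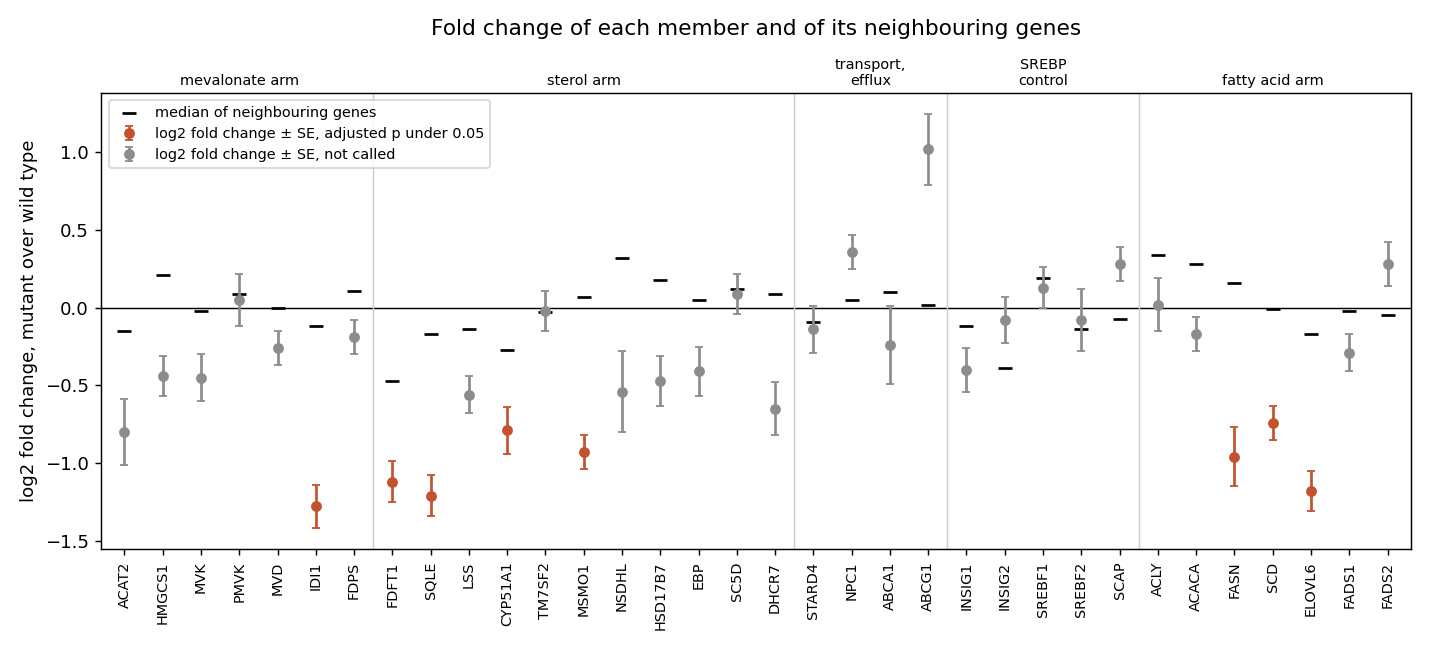
Log2 fold change of each member (mutant over wild type, edgeR, bars are ± SE, 2 libraries per group), with called members in red, and the median over neighbouring genes as black dashes. IDI1 at -1.28, SQLE at -1.21 and ELOVL6 at -1.18 stand far below their neighbours at -0.12, -0.17 and -0.17, while FDFT1 at -1.12 has neighbours at -0.47.

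Of the 7 members of fatty acid synthesis 3 were called lower and none higher, with a median log2 fold change of -0.29. The share called lower was 2.1% over all tested genes and 3.26% over genes averaging 10 CPM or more. SCD, the stearoyl-CoA desaturase that makes monounsaturated fatty acids (ENSG00000099194, chromosome 10, 100347124 to 100364834, plus strand), was at 694 and 754 CPM in wild type and at 440.0 and 426 CPM in the mutant (-0.74, SE 0.11, edgeR adjusted p = 0.0351). FASN, the fatty acid synthase (ENSG00000169710, chromosome 17, 82078333 to 82098332, minus strand), was at 187 and 254 CPM against 122 and 105 CPM (-0.96, SE 0.19, adjusted p = 0.0491). The wild-type libraries of FASN were well apart, and its call was lost without mutant replicate 1 (adjusted p = 0.0747) or replicate 2 (0.221), where the spread comes from the wild-type pair alone. FASN was also not called with RLE scaling (adjusted p = 0.0507), the stricter filter (0.0571) or effective lengths (0.0553). On TPM all 3 fatty acid calls were lost with either pseudocount. With limma on log2(TPM + 1) the adjusted p was 0.0944 for FASN, 0.0546 for SCD and 0.118 for ELOVL6. MSMO1, SCD and CYP51A1 also lost their calls when either mutant library was left out, with log2 fold changes from -0.94 to -0.72.

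ELOVL6, which elongates the products of FASN (ENSG00000170522, chromosome 4, 110045846 to 110199199, minus strand), was at 31.0 and 34.6 CPM in wild type and at 14.1 and 14.8 CPM in the mutant (-1.18, SE 0.13, edgeR adjusted p = 0.0242). It was called when either mutant library was left out. Per length the difference was smaller. ELOVL6 was at 7.15 and 8.37 TPM in wild type and at 5.8 and 4.59 TPM in the mutant. The effective length that RSEM assigned was 3365 and 3074 bases in wild type and 2115 and 2810 bases in the mutant, a change of -0.39 on the log2 scale and the largest among the members. With effective lengths in the fit ELOVL6 had -0.77 and was not called (adjusted p = 0.0629). RSEM averages this length over the transcripts it estimates for a gene. The part of the length in the count difference was not tested further.

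The enzymes upstream of FASN were not called. ACLY, which makes cytosolic acetyl-CoA from citrate, was at 353 and 460.0 CPM in wild type and at 443 and 380.0 CPM in the mutant. ACACA, the acetyl-CoA carboxylase, was at 136 and 137 CPM against 121 and 123 CPM (-0.17, edgeR adjusted p = 0.344). Both lie on chromosome 17 among genes with medians of 0.34 and 0.28. The desaturase FADS1 was at 116 and 132 CPM against 104 and 99.2 CPM (-0.29, adjusted p = 0.182). The desaturase FADS2 went the other way, at 64.3 and 74.1 CPM in wild type and at 91.3 and 77.2 CPM in the mutant (0.28, adjusted p = 0.245). FADS1 and FADS2 overlap on opposite strands, and FADS2 overlaps FEN1 on its own strand, so reads of the 3 may not be told apart.

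RefSeq promoters, from 250 bases before to 50 bases after the annotated start (GRCh38.p14), were at hand for 29 of the 34 members. Members without an entry were ACAT2, FDFT1, SQLE, ABCG1 and FASN. The search covered both strands for the sterol regulatory element as TCACNCCAC, the NF-Y box as CCAAT, the GC box as GGGCGG and the E-box as CACGTG, and none of the 4 patterns contains another. NF-Y and Sp1, which bind the NF-Y box and the GC box, are known partners of SREBP. An NF-Y box was in the promoter of 20 of 29 members, or 69.0%, against 42.9% of tested genes with an entry and 39.7% of all genes with one. Some genes have several annotated starts, and any of them counted. A GC box was found for 96.6% of members and 75.9% of tested genes, and an E-box for 17.2% and 12.3%. The sterol element in these letters was found for SREBF2 alone, or 3.45% of members, against 1.43% of tested genes. Of the 5 called genes with an entry 3 had an NF-Y box, as did 17 of the 24 not called. A match describes letters and not a bound site. Other forms of the sterol element, and bases outside this window, were not searched, so no match does not mean no element.

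5 promoters show the range among the members. IDI1, MSMO1 and SCD fell and hold NF-Y boxes, ELOVL6 fell and holds none, and SREBF2 holds the sterol element but its level overlapped between the groups. Each is printed 5′ to 3′ on the gene's strand, with NF-Y boxes of either strand (read as ATTGG when on the other strand) and the sterol element in capitals. For IDI1 the start nearest the GENCODE gene end is shown. The positions are chr10:1049070-1049369 (minus) for IDI1, chr4:165327419-165327718 (plus) for MSMO1, chr10:100346983-100347282 (plus) for SCD, chr4:110198566-110198865 (minus) for ELOVL6 and chr22:41832855-41833154 (plus) for SREBF2.
IDI1: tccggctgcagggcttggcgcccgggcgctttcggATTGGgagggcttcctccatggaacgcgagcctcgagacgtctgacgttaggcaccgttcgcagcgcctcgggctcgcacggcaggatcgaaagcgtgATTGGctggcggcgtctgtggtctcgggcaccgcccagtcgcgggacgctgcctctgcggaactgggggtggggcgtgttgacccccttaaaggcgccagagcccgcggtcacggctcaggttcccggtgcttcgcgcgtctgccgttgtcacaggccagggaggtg
MSMO1: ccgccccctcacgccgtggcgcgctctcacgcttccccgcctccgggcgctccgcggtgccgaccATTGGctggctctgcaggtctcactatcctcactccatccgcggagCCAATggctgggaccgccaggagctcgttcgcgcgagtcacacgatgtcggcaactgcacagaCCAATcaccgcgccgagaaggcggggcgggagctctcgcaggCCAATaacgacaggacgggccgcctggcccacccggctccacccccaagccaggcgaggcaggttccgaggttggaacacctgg
SCD: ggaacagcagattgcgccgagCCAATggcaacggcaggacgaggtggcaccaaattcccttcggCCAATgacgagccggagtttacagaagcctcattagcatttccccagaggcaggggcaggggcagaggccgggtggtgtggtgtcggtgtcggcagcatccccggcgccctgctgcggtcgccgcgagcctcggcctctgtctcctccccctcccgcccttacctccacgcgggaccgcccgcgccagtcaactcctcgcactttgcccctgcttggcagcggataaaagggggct
ELOVL6: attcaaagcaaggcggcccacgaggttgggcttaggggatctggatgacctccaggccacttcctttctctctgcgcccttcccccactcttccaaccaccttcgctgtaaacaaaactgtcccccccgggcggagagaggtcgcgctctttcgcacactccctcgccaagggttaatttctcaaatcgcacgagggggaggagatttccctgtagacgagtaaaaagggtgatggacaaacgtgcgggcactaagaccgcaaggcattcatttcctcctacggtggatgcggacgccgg
SREBF2: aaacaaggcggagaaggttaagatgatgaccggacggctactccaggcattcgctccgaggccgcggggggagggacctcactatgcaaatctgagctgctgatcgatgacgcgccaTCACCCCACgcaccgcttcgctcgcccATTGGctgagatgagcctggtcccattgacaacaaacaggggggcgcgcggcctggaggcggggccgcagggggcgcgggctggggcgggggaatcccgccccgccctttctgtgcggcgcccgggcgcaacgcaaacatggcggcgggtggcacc
MSMO1 has 4 NF-Y boxes, beginning 185, 139, 76 and 34 bases before the start. IDI1 and SCD have 2 each, beginning 215 and 117 bases before the start in IDI1 and 229 and 186 bases before it in SCD. In SREBF2 the sterol element begins 133 bases before the start, followed by an NF-Y box that begins 106 bases before it.

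None of the 5 genes that control SREBP was called, where 2.1% of all tested genes were called lower and 3.71% higher. No call among so few genes is near those shares. Their median log2 fold change was -0.08. SREBF2, the gene for SREBP2, was at 118 and 80.8 CPM in wild type and at 89.3 and 99.3 CPM in the mutant. The mutant values lay between the wild-type values, giving a log2 fold change of -0.08 (SE 0.20, edgeR adjusted p = 0.825). SREBF1, the gene for SREBP1, was at 22 and 19.5 CPM against 23.0 and 22.4 CPM (0.13, SE 0.13, adjusted p = 0.532). SCAP, the escort of both, was at 91.8 and 90.9 CPM in wild type and at 114 and 108 CPM in the mutant (0.28, SE 0.11, adjusted p = 0.156). SCAP's groups did not overlap, but the difference was not called. These are RNA levels, and the amount of active SREBP protein is not analysed here.

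INSIG1, which holds SCAP in the endoplasmic reticulum and is itself an SREBP target, was at 238 and 203 CPM in wild type and at 158 and 176 CPM in the mutant (-0.40, SE 0.14, edgeR adjusted p = 0.131). All mutant values were lower, at 76.0% of wild type on average, without a call. On TPM its groups overlapped, at 70.3 and 58.7 TPM in wild type and 55.0 and 62.6 TPM in the mutant. With effective lengths in the edgeR fit INSIG1 had -0.32 (adjusted p = 0.197). Its paralog INSIG2 was at 14.4 and 13 CPM against 12.6 and 13.4 CPM (-0.08, adjusted p = 0.751). INSIG2 lies among genes with a median of -0.39.

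None of the 4 transport and efflux genes was called, which is also near the shares over all tested genes (2.1% lower and 3.71% higher). Their median log2 fold change was 0.11. ABCG1, an efflux pump that LXR raises (ENSG00000160179, chromosome 21, 42199689 to 42297244, plus strand), was at 7.38 and 5.02 CPM in wild type and at 12.6 and 12.5 CPM in the mutant. Both mutant libraries were above both wild-type libraries. The log2 fold change of 1.02 (SE 0.23) was the highest among the members. It was not called by edgeR (adjusted p = 0.0611) but was by DESeq2 (adjusted p = 0.00594). The other LXR-driven pump, ABCA1, was at 5.96 and 4.15 CPM against 4.23 and 4.34 CPM, with overlapping groups (-0.24, adjusted p = 0.561). ABCA1 was the member with the lowest level per length, at 0.515 TPM in wild type.

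NPC1, which exports cholesterol from lysosomes, was at 36.2 and 38.3 CPM in wild type and at 48.5 and 47.3 CPM in the mutant (0.36, SE 0.11, edgeR adjusted p = 0.104). It was called higher with total counts as the only scaling. STARD4, a sterol carrier and SREBP target, was at 98.8 and 78.4 CPM against 78.8 and 81.6 CPM (-0.14, adjusted p = 0.55). Its groups overlapped.

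The wild-type libraries also differed from each other at these genes, and the mutant mean was set against each of them. Wild-type replicate 2 was above replicate 1 at 13 of the 18 sterol enzymes and at 7 of the 7 fatty acid genes, with median log2 ratios of 0.20 and 0.18. It was above at 48.2% of all tested genes, with a median of -0.02, and at 61.9% of genes averaging 10 CPM or more, with a median of 0.10. The median log2 ratio of the mutant mean for the 18 enzymes was -0.40 against wild-type replicate 1 and -0.62 against replicate 2. Over all tested genes these medians were 0.00 and 0.02, and over genes averaging 10 CPM or more -0.03 and -0.14. The mutant mean was below replicate 1 at 17 of the 18 enzymes and below replicate 2 at 16. At IDI1 the ratio was -1.14 against replicate 1 and -1.41 against replicate 2. SQLE had -1.09 and -1.32, and MSMO1 -0.97 and -0.89. NSDHL, by contrast, had -0.10 and -0.88, ACAT2 -0.49 and -1.06, and SREBF2 changed sign, from -0.33 to 0.22.

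**Figure D3:**
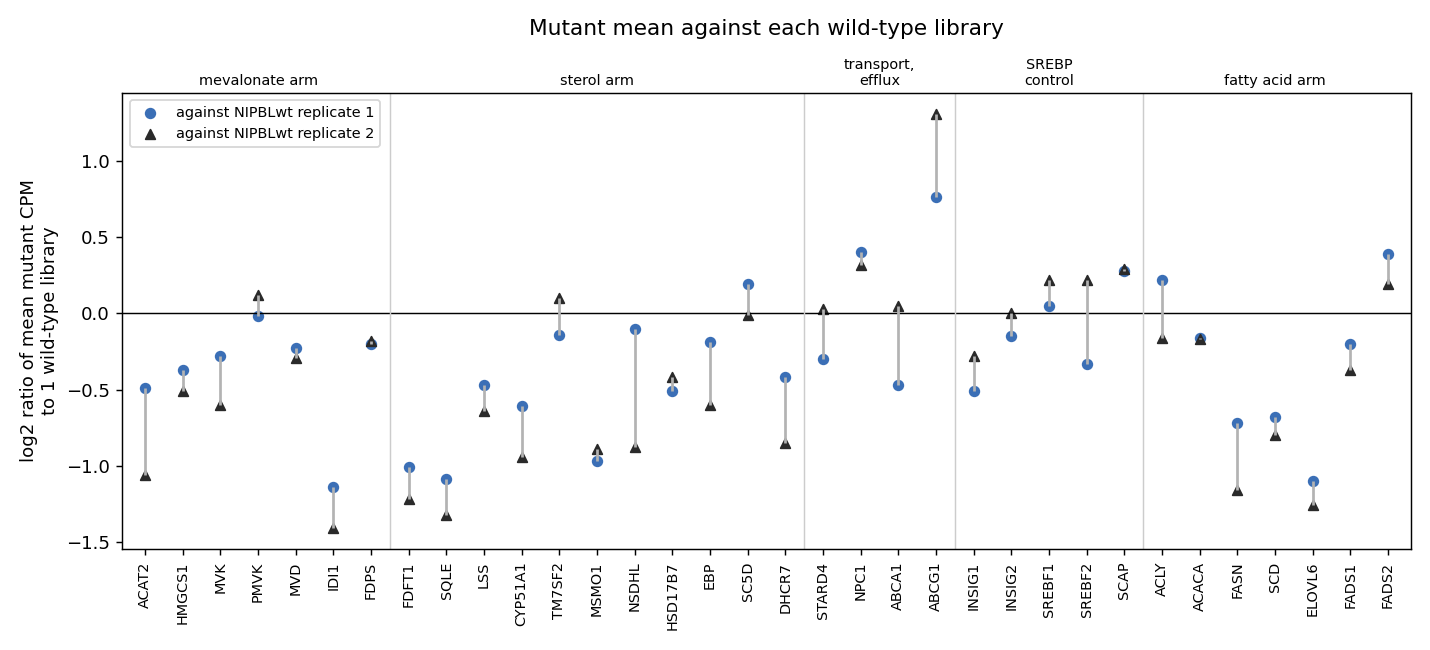
Log2 ratio of the mean mutant CPM to each wild-type library alone, replicate 1 as blue circles and replicate 2 as black triangles, joined by a line for each member. The 8 called members are below 0 against both libraries, from -0.61 for CYP51A1 against replicate 1 to -1.41 for IDI1 against replicate 2, and SREBF2 and ACLY lie on both sides of 0.

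With the median of those neighbours removed, 6 of the 34 members (17.6%) were called lower, against 0.88% of all tested genes. All 6 were among the 8 called without it. These were IDI1, SQLE, MSMO1, FASN, SCD and ELOVL6, while FDFT1 and CYP51A1 were not. The median over the 34 members was then -0.38. Neighbourhood medians ranged from -0.47 to 0.34 over the members.

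A further 58 genes of the same pathways were taken from lists that hold acyl-CoA and elongation enzymes, other sterol and isoprenoid branch genes, sterol uptake and transfer genes, and SREBP processing and LXR genes. These lists too were chosen with earlier results known. 57 were tested, and edgeR called 1 (1.75%) lower and none higher, against 2.1% and 3.71% of all tested genes. DESeq2 called 8 lower and none higher, against 5.84% and 6.44% of the genes to which it gave an adjusted p. Both mutant libraries lay below both wild-type libraries at 40.4%, against 30.8% of all tested genes and 40.5% of genes averaging 10 CPM or more. The median log2 fold change was -0.04. CH25H was the gene not tested, with a count in only 1 library. MYLIP, the LXR-induced ubiquitin ligase that sends lipoprotein receptors to degradation, was the 1 that edgeR called. It was at 17.2 and 16.9 CPM in wild type and at 10.1 and 10.4 CPM in the mutant (-0.74, SE 0.14, edgeR adjusted p = 0.0449). The call was lost with total counts (adjusted p = 0.08), without mutant replicate 1 (0.36) or replicate 2 (0.369), and in 6 other alternatives. MYLIP and ABCG1, both LXR targets, had fold changes of opposite sign, and 1 of them was called. ABCA1 had -0.24. Of the SREBP processing and LXR list, ABCG4 had 0.54 and LPCAT3 0.30, neither called (edgeR adjusted p = 0.21 and 0.19). A common change of LXR targets was not tested.

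The proteases that release SREBP had positive fold changes and were not called. MBTPS1 was at 163 and 148 CPM in wild type and at 189 and 191 CPM in the mutant (0.29, edgeR adjusted p = 0.168). MBTPS2 was at 22.8 and 20.9 CPM against 28.3 and 25.5 CPM (0.30, adjusted p = 0.189). Another 2 genes of the SREBP processing list had negative fold changes that DESeq2 called and edgeR did not, and they are named after their values were seen. SPRING1, a factor needed for SREBP activation, was at 65.8 and 82.5 CPM against 52.7 and 48.6 CPM (-0.55, edgeR adjusted p = 0.0862, DESeq2 adjusted p = 0.0414). UBXN8 was at 28.8 and 43.8 CPM against 21.5 and 19.2 CPM (-0.83, edgeR adjusted p = 0.0823, DESeq2 adjusted p = 0.00914), among genes with a median of -0.39. NPC2, the soluble partner of NPC1, was at 42.0 and 35.1 CPM against 43.4 and 43.8 CPM (0.18, adjusted p = 0.417). NR1H2, the gene for LXR-beta, was at 15.2 and 14.8 CPM against 16.6 and 15.2 CPM, a log2 fold change of 0.08.

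**Figure D4:**
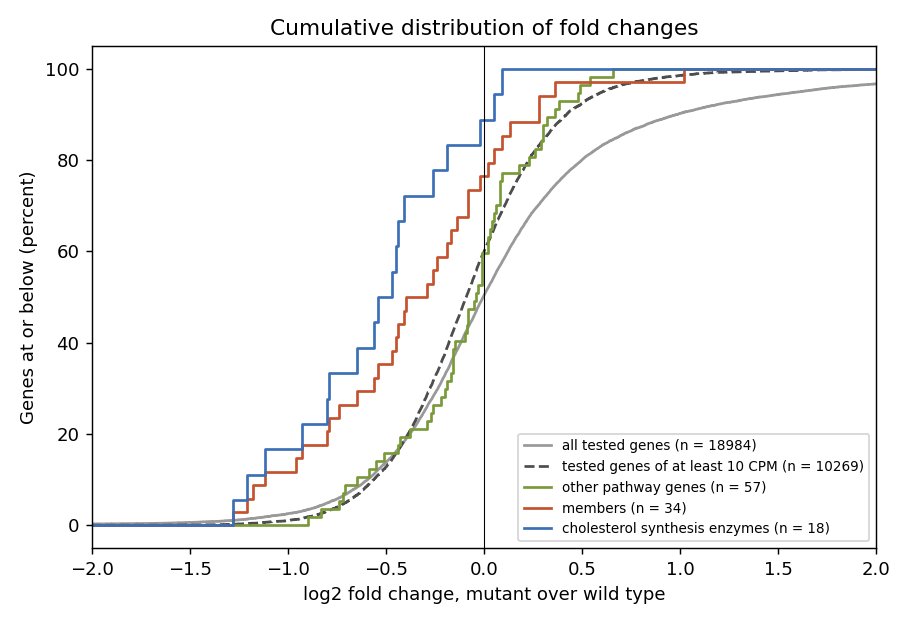
Cumulative share of genes (percent) at or below each log2 fold change, for the 18 cholesterol synthesis enzymes, the 34 members, the 57 tested genes of the other pathway lists, all tested genes and those of at least 10 CPM. The median is -0.50 for the enzymes, -0.34 for the members and -0.04 for the other pathway genes. It is -0.01 for all tested genes and -0.09 for those of at least 10 CPM.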

How the data were processed

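RNA-seq libraries of 293FT cells were compared between NIPBLmut and NIPBLwt, 2 each, grouped by the labels' titles. The submitters' processing notes name hg38, RSEM 1.3.1 and STAR 2.7.3a. The annotation release and the strand setting were not given in the sources used here. Per the file headers, the deposited tables give expected counts, TPM, FPKM (not used) and effective lengths per gene. Expected counts were rounded and tested with edgeR 4.0.16 (R 4.3.3): filterByExpr by group, TMM scaling, robust quasi-likelihood test, Benjamini-Hochberg over 18984 genes, called under 0.05. Libraries held 31545743 to 33161120 counts, and with 2 per group the spread is estimated from few samples. 57836 of 58174 identifiers matched GENCODE 29.

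Alternatives were RLE, upper-quartile and total-count scaling, no filter or 1 CPM in all libraries, DESeq2 1.42.0, limma-trend (limma 3.58.1) on log2(TPM + 1) and log2(TPM + 0.1), effective length offsets, a block on replicate number, omission of each library in turn and, chosen after seeing the data, the neighbourhood offset of 25 genes on each side. The scripts were tested on simulated data. All 34 members are named. Of the other pathway lists NPC2, MBTPS1, MBTPS2, NR1H2, the untested CH25H and every gene called in the main edgeR fit are named. SPRING1, UBXN8, NUS1, FNTA, POR, ACSL3 and ELOVL1, all called by DESeq2, were named after their values were seen. So were ABCG4 and LPCAT3, which neither edgeR nor DESeq2 called. The members and lists were chosen with earlier results of these data known.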

Additional observations from a re-analysis of the deposited data

How the results depend on the processing

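IDI1 and SQLE were called lower in all 15 alternatives. In place of 399 genes called lower and 704 called higher, 274 and 1112 were called with total counts, 786 lower and 1132 higher without the filter, 238 and 315 with the stricter filter, 1117 and 1232 with DESeq2, and 167 and 443 with the neighbourhood offset, which was chosen after seeing the data. On TPM 119 and 818 (pseudocount 1) and 110 and 678 (0.1) were called lower and higher. The median of all tested genes moved from -0.01 to 0.17 with total counts, 0.08 with upper-quartile scaling, and 0.12 and 0.18 on TPM. Without each library in turn the counts ranged from 64 to 5931 lower and from 335 to 5909 higher. The fits without a wild-type library take the spread from the close mutant pair alone.

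In place of 8 members lower and 0 higher, 6 were lower with RLE scaling, the stricter filter, effective lengths or the neighbourhood offset, 4 on TPM with either pseudocount, and 1 was higher with total counts, no filter or DESeq2. Leaving out libraries gave 3 to 23 lower and 0 to 6 higher. The members' median of -0.34 became -0.26 with upper-quartile scaling, -0.17 with total counts and -0.29 with the stricter filter. It was -0.13 and -0.15 on TPM, and -0.38 with the neighbourhood offset. With the median of all tested genes subtracted, it was -0.34 in the main fit and with total counts. On TPM that difference was -0.26 and -0.33. The members' median ranged from -0.35 to -0.29 without each library. Of the other pathway genes, 1 was called lower and 0 higher. There were 2 lower with upper-quartile scaling, 6 without the filter, 8 with DESeq2, and 0 with the stricter filter, TPM or the neighbourhood offset, and 1 was higher with total counts or TPM. Leaving out libraries gave 0 to 24 lower and 0 to 14 higher. Except where fewer libraries or genes were used, the cause was not tested.

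Replicate numbers did not pair the libraries (correlation of deviations -0.0584). With the replicate block 809 genes were called lower and 1470 higher, 10 members lower and 1 higher, and 6 other pathway genes lower.

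Signs turned only for genes that were not called. The other pathway median became 0.04 with upper-quartile scaling, 0.13 with total counts, 0.01 with the stricter filter, and 0.13 and 0.14 on TPM. Over all tested genes the median was 0.08 with upper-quartile scaling, 0.17 with total counts, and 0.12 and 0.18 on TPM. With total counts STARD4 had 0.02, INSIG2 0.09, SREBF2 0.08, ACACA 0.00 and TM7SF2 0.14. On TPM FDPS had 0.05 and 0.05, STARD4 0.14 and 0.15, INSIG2 0.11 and 0.13, SREBF2 0.12 and 0.13, ACACA 0.03 and 0.03, and TM7SF2 0.11 and 0.11. TM7SF2 had 0.05 and INSIG2 0.00 with upper-quartile scaling, and TM7SF2 0.02 with the stricter filter. ACLY had -0.02 with effective lengths. With the neighbourhood offset PMVK had -0.04, TM7SF2 0.00, SC5D -0.03, INSIG2 0.31, SREBF1 -0.06, SREBF2 0.06, ACLY -0.32 and NR1H2 -0.07. Leaving out each library, PMVK ranged from -0.07 to 0.16, TM7SF2 from -0.14 to 0.08, SC5D from -0.02 to 0.19, STARD4 from -0.30 to 0.02, ABCA1 from -0.48 to 0.03, SREBF2 from -0.33 to 0.21 and ACLY from -0.18 to 0.22.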

Other observations

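A list of 15 further genes held sterol enzymes and their partners beside the members and enzymes of the isoprenoid branches that leave the pathway. None was called by edgeR, and the median log2 fold change was -0.22. At an unadjusted p under 0.05, 5 (33.3%) were lower and 0 higher, against 13.8% and 15.9% of all tested genes and 20.5% and 11.7% of those averaging 10 CPM or more. Of the isoprenoid branch genes, the 2 named here were chosen after their values were seen. NUS1, a subunit of the enzyme that makes dolichol precursors, was at 61.7 and 77.6 CPM in wild type and 42.4 CPM in both mutant libraries (log2 fold change -0.72, edgeR adjusted p = 0.0536, DESeq2 adjusted p = 0.0047). FNTA, the shared subunit of the protein prenyltransferases, was at 72.8 and 72.9 CPM against 52.6 and 49.4 CPM (-0.51, edgeR adjusted p = 0.0566, DESeq2 adjusted p = 0.0307). The genes around FNTA had a median of -0.22. Of the 57 tested genes of all the other pathway lists, DESeq2 called 8 lower and none higher. It called 5.84% lower and 6.44% higher of all genes to which it gave an adjusted p. The 8 were MYLIP, SPRING1, UBXN8, NUS1, FNTA, POR, ACSL3 and ELOVL1.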
